A study of Sus scrofa with 6 samples.

Results

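Heat shock chaperones were followed in single-cell RNA data from the ileum of newborn pigs. The 10 genes were chosen by name: the HSP70 genes HSP70.2, HSPA6 and HSPA8, the HSP110 gene HSPH1, the HSP90 genes HSP90AA1 and HSP90AB1, the J protein genes DNAJB1 and DNAJA1, the small heat shock protein gene HSPB1 and the mitochondrial co-chaperonin gene HSPE1. They are 10 of the 20648 genes in the files. All 10 had counts and all passed the filter on low counts in each comparison. The ileum was taken from male Large White piglets, fed maternal milk and otherwise untreated, at day 0, 1, 3, 7, 14 and 21 after birth, with 1 droplet library per age. Since each age is a single library, no test between ages was possible, and the 95% Poisson intervals around a level cover counting error only.

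Chaperones bind unfolded or newly made proteins and keep them from aggregating. Under stress, heat shock factors switch on the inducible genes (HSP70.2, HSPA6, HSPH1, DNAJB1, HSPB1 and HSP90AA1 among them), whereas HSPA8 and HSP90AB1 are made by most cells at all times. HSP70 works in a cycle in which a J protein such as DNAJB1 or DNAJA1 delivers the client and an HSP110 such as HSPH1 exchanges the nucleotide. HSP90 takes over clients at a later step, and HSPE1 caps the HSPD1 chaperonin inside mitochondria. In tissue that has been cut and dissociated, mRNAs of the inducible genes can also rise after sampling.

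The libraries held 77391932 to 100348769 unique molecular identifiers (UMIs, each standing for 1 captured mRNA molecule). Of all barcodes, 76099 had at least 1000 UMIs and 500 genes, with a median of 3693 to 4560 UMIs per library. Compared by position in the barcode list, 672 of the 75427 distinct barcodes occurred in more than 1 library. Pairs of libraries shared 31 to 68, each above the number expected from the size of the list (18.1 to 32.4). The cause was not tested. Barcodes were sorted by marker UMIs into B (at least 2 UMIs of MS4A1, PAX5 and POU2AF1), T (at least 2 of CD3E and CD3G) and epithelial (at least 5 of EPCAM, KRT8 and VIL1). This gave 51622 B, 4813 T and 4044 epithelial barcodes, while 1069 that passed more than 1 gate were left out of these classes and 14551 passed none. The classes were checked on markers outside the gates, and the ranges did not overlap between classes. Over the 6 libraries, 6 B markers summed to 13.2 to 20.5 per 10000 UMIs in B barcodes and to at most 1.47 in the other 2 classes. The 7 T markers summed to 8.44 to 15.9 in T and 0.663 to 2.53 in B barcodes, and 8 epithelial markers to 27.7 to 73.5 in epithelial, 0.191 to 1.22 in T and 0.0105 to 0.868 in B barcodes. T barcodes were numerous at day 0 (1777) and day 1 (1639) and few later (205 to 453). Epithelial barcodes numbered 2715 at day 0, 27 at day 14 and 1 at day 21, so day 21 was left out for that class.

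Levels below are UMIs of a gene per 10000 UMIs of nuclear genes, summed over all barcodes of a class in a library. Levels are compared between ages and classes for 1 gene at a time.

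HSP70.2 is the pig counterpart of HSPA1A and HSPA1B, the classic stress-inducible HSP70, and lies on chromosome 7 at 23925929 to 23927854 (Sscrofa11.1). In B barcodes its level was 1.21 at day 0, 0.408 at day 1, 2.66 at day 3, 5.43 at day 7, 3.34 at day 14 and 0.787 at day 21. The peak at day 7 (interval 5.37 to 5.50) was 13.3 times the trough at day 1 (0.377 to 0.442), and no neighbouring ages in the order of levels had overlapping intervals. T barcodes held 5.47, 1.46, 3.64, 9.41, 19.0 and 7.59 at the same ages, so the trough was again day 1 but the peak was day 14 (18.3 to 19.8). Epithelial barcodes held 3.01, 2.55, 10.5, 12.5 and 13.3 from day 0 to day 14, with intervals that overlapped between day 7 and day 14. HSP70.2 sits within the annotated span of HSPA1L (23909960 to 23938678), another HSP70 gene, so reads of the pair may have been counted for either gene. LOC100624113 (23933356 to 23935759) lies in the same span and is not among the genes of the files. Whether its reads were lost or counted for HSP70.2 or HSPA1L is not known. Over the kept barcodes of a library, HSPA1L had 46 to 3736 UMIs and HSP70.2 had 5277 to 38632.

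HSPA6, a strictly inducible HSP70 on chromosome 4 (88970592 to 88973109), moved over a wider range. Its levels in B barcodes were 0.310, 0.0932, 1.52, 3.81, 1.91 and 0.506 from day 0 to day 21, a span of 40.9 times between day 1 and day 7. The T levels were 1.25, 0.279, 1.01, 3.84, 8.29 and 2.28. Both inducible HSP70 genes were lowest at day 1 in B, T and epithelial barcodes, highest at day 7 in B and highest at day 14 in T. With the UMIs of HSP70.2 and HSPA1L summed, day 1 stayed lowest in B and T barcodes, but in epithelial barcodes the sum was 3.43 at day 0 and 4.11 at day 1, so the epithelial trough of the sum was day 0. HSPA8, the constitutive HSP70 that also uncoats clathrin vesicles, behaved differently in B barcodes, at 15.5, 16.7, 15.6, 12.3, 14.4 and 9.95. Its B peak was day 1, where HSP70.2 and HSPA6 were lowest, and the whole range was 1.68 times.

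HSPH1, the HSP110 exchange factor (chromosome 11, 7733874 to 7759528), had B levels of 2.36, 1.76, 3.62, 4.49, 3.72 and 2.37. DNAJB1, the J protein that partners inducible HSP70 (chromosome 2, 64761672 to 64764482), had 3.71, 2.11, 4.54, 10.4, 5.96 and 1.2. Both peaked at day 7 in B barcodes, as the inducible HSP70 genes did, and day 14 came next for all 4. For HSPH1 the intervals of day 14 and day 3 overlapped. DNAJA1, the other J protein, was highest at day 0 (7.08) and lay between 4.42 and 5.42 at the later ages.

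HSP90AA1, the inducible HSP90, ranged from 15.2 at day 21 to 21.8 at day 7 in B barcodes. HSP90AB1, the constitutive HSP90, ranged from 16 at day 21 to 25 at day 1. The small heat shock protein HSPB1, which holds unfolded proteins without ATP, lay between 1.68 (day 1) and 3.85 (day 14). HSPE1 was lowest at birth (5.91 at day 0) and highest at day 14 (9.62), and at each of the 5 later ages its level was above that of day 0. Summed over the 10 genes, B levels were 77.7, 77.5, 87.7, 95.8, 88.0 and 61.5, with overlapping intervals for day 0 and day 1 and for day 3 and day 14. The summed level of 12 immediate early genes, which respond within minutes to handling and other stimuli (FOS, JUN and EGR1 among them), took another course in the same barcodes, at 83.5, 60.9, 38.6, 56.0, 27.1 and 14.5.

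In T barcodes all 10 chaperone genes were highest at day 14. HSP90AA1 was 46.5 there and 13.1 to 31.4 at the other ages, DNAJB1 was 19.7 against 2.82 to 10.8, and HSPB1 was 8.21 against 1.43 to 3.44. DNAJA1 (9.60 against 4.13 to 7.84) and HSP90AB1 (28.9 against 12.7 to 21.9) exceeded the next age by the smallest ratios. The sum over the 10 was 96.4, 84.1, 67.4, 118, 194 and 75.8 from day 0 to day 21. Only 370 T barcodes, with a median of 2906.5 UMIs, stand behind the day 14 values. Of 8 epithelial markers 5 (KRT18, KRT19, CDX1, CLDN7 and TSPAN8) were at 0 in them. Barcodes of the same library that passed no gate had similar levels of HSP70.2 (23.7) and HSP90AA1 (48.7). All members but HSP90AB1 were highest at day 14 in no-gate barcodes, and all but HSPA6 and HSP90AB1 in barcodes of more than 1 gate. The part of that shared pattern in the T values was not tested.

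**Figure D1:**
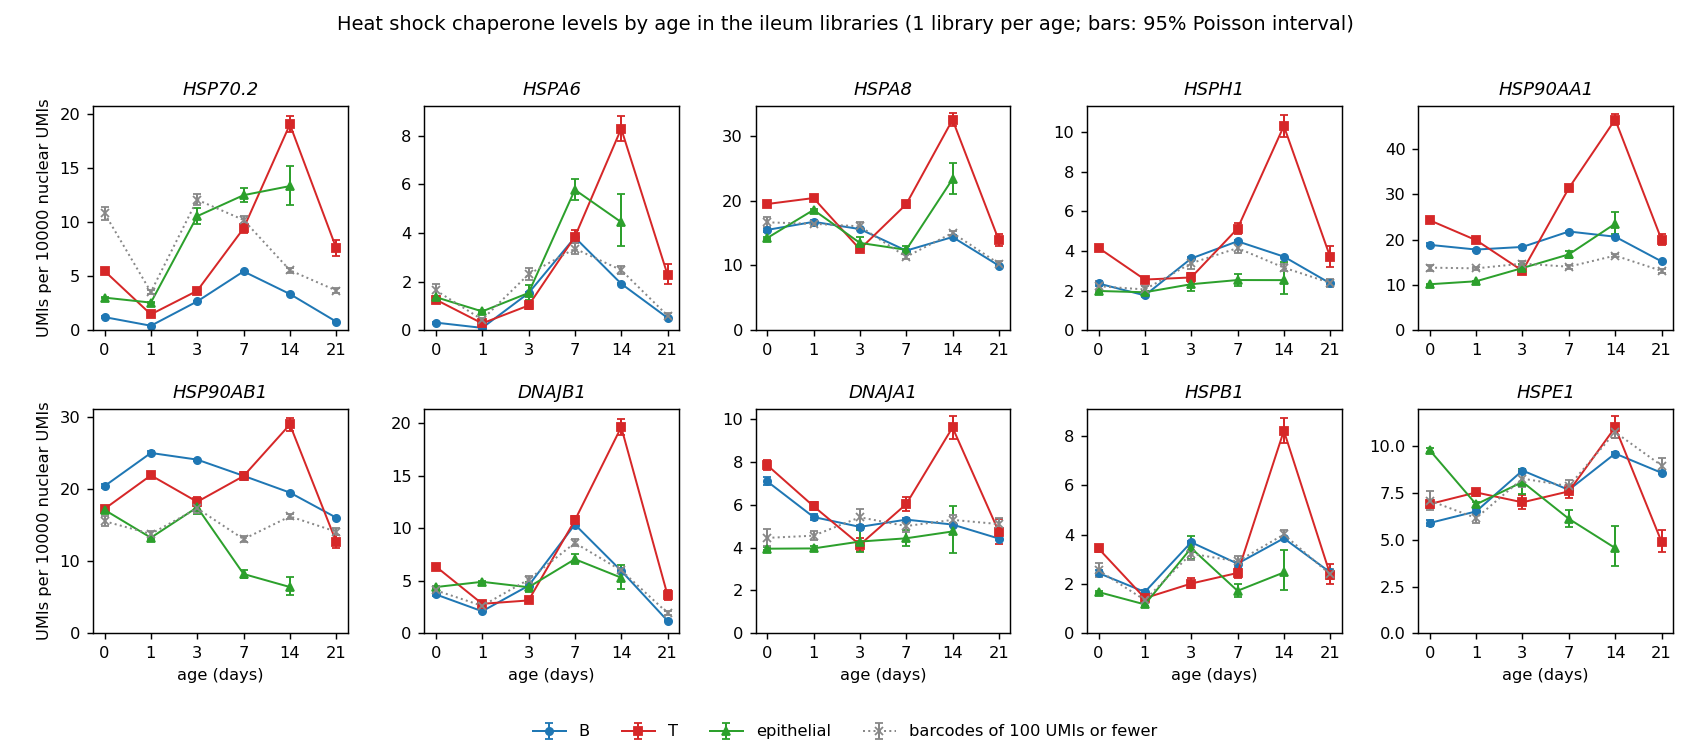
Level of each of the 10 chaperone genes (vertical axis, UMIs per 10000 nuclear UMIs) against age in days (horizontal axis) in B, T and epithelial barcodes and in barcodes of 100 UMIs or fewer. Points are 1 library each and bars are 95% Poisson intervals. The T line is highest at day 14 in all 10 panels, and HSP70.2, HSPA6, HSPH1 and DNAJB1 in B barcodes peak at day 7.

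The share of barcodes in which HSP70.2 was seen had the same order of ages as its level, in B and in T barcodes. After each barcode was thinned to 1000 UMIs, HSP70.2 had a UMI in 6.63%, 2.44%, 17.1%, 32.2%, 22.5% and 5.68% of B barcodes from day 0 to day 21. In T barcodes the shares were 24.6%, 8.24%, 17.6%, 41.5%, 51.6% and 28.8%. HSP90AB1 was seen in 68.4% to 84.3% of B barcodes. The variance of thinned HSP70.2 counts was 1.70 to 3.30 times their mean in B barcodes and 2.24 to 7.33 times in T barcodes, the highest value being T at day 14. For HSPE1 the same ratio was 1.09 to 1.29 in B and 1.1 to 1.60 in T barcodes.

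Barcodes with 100 UMIs or fewer, most of which should be empty droplets, show what free RNA in each suspension contained. HSP70.2 in them was 10.8, 3.53, 12.1, 10.2, 5.54 and 3.66 from day 0 to day 21, above the B level in 6 of 6 libraries. The mean log2 difference of B against these barcodes was -2.05 ± 1.04 (SD, n = 6). HSP90AA1 and HSP90AB1 went the other way and were higher in B barcodes in 6 of 6 libraries, by 0.39 and 0.49 on the log2 scale. The order of ages for HSP70.2 in these barcodes (day 3 first, then day 0 and day 7) was not that of B or T barcodes. T levels of HSP70.2 were above the level in these barcodes at day 14 and day 21 and below it at day 0, 1, 3 and 7. How much free RNA contributed to any level was not tested.

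T and B barcodes were then compared within libraries, which puts both classes under the same preparation. HSP70.2 was 0.45 to 3.27 higher in T than in B barcodes on the log2 scale, in 6 of 6 libraries, with a mean of 1.84 ± 1.06 (SD, n = 6). The smallest difference was at day 3 (3.64 against 2.66) and the largest at day 21 (7.59 against 0.787). In the fit across 12391 genes, with the library as a block, the log2 fold change was 1.69, or 3.22-fold (edgeR's quasi-likelihood test with Benjamini-Hochberg adjustment, adjusted p = 0.0023). HSP70.2 was the only member called of the 10, in a comparison that called 25.8% of all genes. The summed epithelial markers had a median of 0.277 in T and 0.130 in B barcodes, and their part in the HSP70.2 difference was not tested.

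The other 9 members had fitted values between -0.27 and 0.97. HSPA6 was higher in T barcodes in 5 of 6 libraries, with a mean log2 difference of 1.22 ± 1.2 (SD, n = 6), and was not called (fitted 0.97, adjusted p = 0.094 by the same test). At day 3 it was lower in T (1.01) than in B (1.52), and without that library it was called (1.37, adjusted p = 0.020). DNAJB1 (0.51), HSPH1 (0.36), HSPA8 (0.24) and HSP90AA1 (0.17) were also higher in T in 5 of 6 libraries and not called, as was DNAJA1 (0.018). HSP90AB1 was lower in T in 5 of 6 libraries (-0.27) and not called. The median over the 10 was 0.20, against -0.11 over all genes. HSP70.2 lost its call when the library block was left out (1.51, adjusted p = 0.088).

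Epithelial barcodes differed from B barcodes in both directions. HSP70.2 was higher in 5 of 5 libraries, by 1.83 ± 0.59 (SD, n = 5) on the log2 scale, and the fit gave 1.64 (adjusted p = 0.0010, edgeR's quasi-likelihood test with Benjamini-Hochberg adjustment). HSPA6 was also higher, by a fitted 1.1 (adjusted p = 0.036), although the levels at day 3 were nearly equal (1.53 against 1.52). Lower in epithelial barcodes were HSP90AB1 (-1.22), HSPB1 (-0.81), HSP90AA1 (-0.76), HSPH1 (-0.75) and DNAJA1 (-0.70). That makes 7 of 10 members called, in a comparison that called 61.5% of all genes (29.7% higher and 31.8% lower).

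HSP90AB1 had the largest negative value of the 10. Its epithelial levels were 17.1, 13.2, 17.5, 8.22 and 6.42 from day 0 to day 14, and its B levels at those ages were 20.4, 25, 24.1, 21.8 and 19.5, with no overlap between the classes. HSP90AA1 had epithelial levels of 10.1, 10.8, 13.7, 16.7 and 23.5, highest at day 7 and day 14, where HSP90AB1 was lowest. The fit scales each sum to its typical gene (TMM). With library size alone the median of all genes moved up by 0.36 in this comparison, and only HSP70.2, HSPA6 and HSP90AB1 were still called, beside 58.3% of all genes (37.3% higher and 21% lower). HSPB1 (-0.48), HSP90AA1 (-0.45), HSPH1 (-0.41) and DNAJA1 (-0.38) kept a negative sign but lost their calls. In plain levels HSPB1 and DNAJA1 were lower in epithelial barcodes in 5 of 5 libraries, and HSP90AA1 and HSPH1 in 4 of 5. The HSPB1 call was also lost without day 1 (-0.78) or day 7 (-0.67), and the HSPH1 call without day 7 (-0.55). HSPA6 lost its call with no filter on low counts, with thinned barcodes, with barcodes of more than 1 gate kept, without the library block and without day 0, 1, 14 or 21, with fitted values of 0.73 to 1.06.

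Between epithelial and T barcodes, 5 of the 10 members were called, all lower in epithelial, in a comparison that called 54.6% of all genes (29.5% higher and 25.1% lower). These were HSPH1 (-1.11, adjusted p = 0.0010), HSP90AB1 (-0.95), HSP90AA1 (-0.93), DNAJA1 (-0.72) and HSPB1 (-0.71, adjusted p = 0.031). The HSPB1 call was lost with library size alone, stricter gates, thinned barcodes, no library block and without day 0, 1, 7 or 14, at adjusted p values of 0.054 to 0.106. Its fitted value stayed negative in all settings tried, at -0.92 to -0.58, and at -0.995 to -0.53 with libraries left out. HSPH1 was 1.92 to 2.53 in epithelial barcodes and 2.56 to 10.3 in T barcodes of the same ages, so the classes did not overlap. HSP70.2 (-0.044, adjusted p = 0.93) and HSPA6 (0.13, adjusted p = 0.82) were not called, with per-library log2 differences of HSP70.2 running from -0.86 to 1.53. T barcodes had medians of 2906.5 to 4527 UMIs from day 0 to day 14, and 0.44% to 2.81% of them had a high mitochondrial share. Beyond the alternative fits, the part of depth and of this share in the comparison was not tested.

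**Figure D2:**
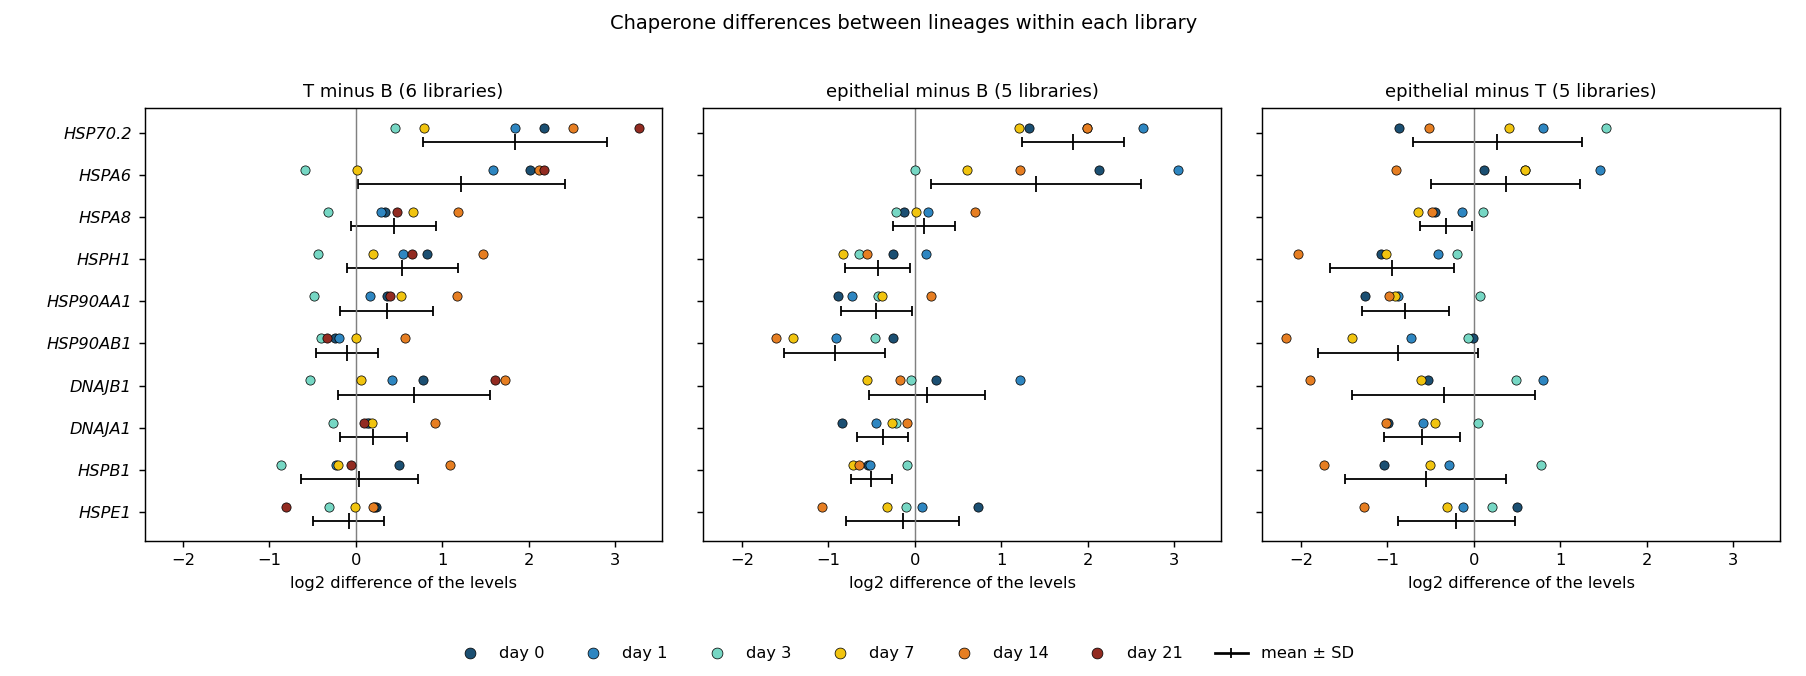
Log2 difference in level of each chaperone gene between barcode classes of the same library, in 3 panels (T minus B with 6 libraries, epithelial minus B with 5 and epithelial minus T with 5). Points are libraries and the bar with its whiskers is the mean ± SD. HSP70.2 lies above 0 in 6 of 6 and 5 of 5 libraries in the first 2 panels, and HSP90AB1 lies below 0 in 5 of 5 in the epithelial panels.

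Genes of the wider chaperone system were compared in the same fits. The 8 TRiC subunits and HSPD1, which fold proteins inside a closed ring, were lower in epithelial than in B barcodes for 8 of 9, with a median of -0.78 against -0.11 for all genes. CCT4 was lowest (-1.08, adjusted p = 0.0010). HSPD1, given here as the partner of HSPE1 and its neighbour on chromosome 15, was not called (-0.49). With library size alone, 2 of the 9 were called, both lower, beside 21% of all genes called lower. Of 15 co-chaperones, 3 were higher and 6 lower in the main fit, beside 29.7% higher and 31.8% lower over all genes. BAG3, a stress-inducible HSP70 regulator, was 1.78 higher (adjusted p = 0.012), BAG1, another nucleotide exchange factor, was 1.84 higher, SERPINH1, a collagen chaperone, was 2.41 higher, and BAG2 was lower (-4.76).

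HSP90B1, the HSP90 of the endoplasmic reticulum, was 1.29 higher in epithelial than in B barcodes (adjusted p = 0.00031), and of 11 other J proteins 3 were higher, DNAJC3 (1.73), DNAJB9 (1.41) and DNAJB11 (0.94), and 3 were lower. Over all genes the main fit called 29.7% higher and 31.8% lower. With library size alone 3 of these 11 J proteins were higher and 0 lower, beside 37.3% of all genes higher and 21% lower. DESeq2 called 3 of them higher and 3 lower, beside 34.6% of all genes higher and 30.6% lower. Genes of that compartment were not a list of their own, and those named here were chosen after their values were seen. Of the 8 other HSP70 genes tested, HSPA1L (3.11) and HSPA4L (2.57) were higher and HSPA2 (-2.62) and HSPA14 (-0.97) were lower. HSPA1L had 1525 and 2751 epithelial UMIs at day 0 and day 1, and 3, 17 and 0 at day 3, 7 and 14. Reads of HSP70.2 may also have been counted for it. HSPA4L levels were low, at 0 to 0.279 in epithelial and 0.0040 to 0.035 in B barcodes. HSPA5, the HSP70 of the endoplasmic reticulum, was not called (0.24). Its levels of 4.51 to 6.66 in epithelial barcodes nonetheless lay above those of 3.35 to 4.42 in B barcodes. With library size alone HSPA5 was called higher (0.56, adjusted p = 0.013 by edgeR). In that fit 4 of the 8 were higher and 2 lower, beside 37.3% of all genes higher and 21% lower. In T against B barcodes, where 11% of all genes were called higher and 14.8% lower, DNAJC3 (1.43) and DNAJA4 (1.53) of 11 other J proteins were higher, and BAG2 (-2.81) and ST13 (-0.48) of 15 co-chaperones and HSPB11 (-0.68) of 4 other small heat shock proteins were lower. The heat shock factors HSF1 and HSF2 had fitted values of -0.016 and -0.10 in T against B barcodes and -0.26 and -0.37 in epithelial against B barcodes, none of them called, at levels of 0.112 to 0.321 in B barcodes.

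A second question was how the chaperones behaved in barcodes rich in mitochondrial RNA, a common sign of damaged cells. Among B barcodes, 42, 46, 289, 177, 180 and 341 from day 0 to day 21 had 25% or more of their UMIs from the 13 mitochondrial genes. HSP70.2 in them was 5.52, 7.52, 7.07, 26.6, 5.42 and 0.895, and in the barcodes below 25% it was 1.14, 0.336, 2.61, 5.35, 3.34 and 0.787. The high class was above the low class in 6 of 6 libraries, by 1.90 ± 1.52 (SD, n = 6) on the log2 scale. At day 21 the gap was within counting error, since the interval of the high class (0.623 to 1.24) took in the level of the low class.

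The fit across 10086 genes called 6 of 10 members between high and low B barcodes, where 38.7% of all genes were called (17.1% higher and 21.6% lower). HSP70.2 was higher (1.33, or 2.52-fold, adjusted p = 5.03e-06, edgeR's quasi-likelihood test with Benjamini-Hochberg adjustment). HSPE1 (-1.03), HSPB1 (-0.93), HSP90AB1 (-0.66), DNAJA1 (-0.54) and HSPA8 (-0.44) were lower. DNAJA1 (0.020) and HSPA8 (0.12) turned positive with library size alone, neither of them called. With a library left out the adjusted p of HSPA8 reached 0.092 by edgeR. HSPE1 was 5.09 to 7.36 in high barcodes and 5.90 to 9.63 in low ones, and only at day 0 was it not below (6.34 against 5.90). With library size alone the median gene moved up by 0.57 and the picture shifted: HSP70.2 (1.90), HSPA6 (0.90), HSPH1 (0.90) and HSP90AA1 (0.34) were called higher, and only HSPE1 (-0.47) and HSPB1 (-0.37) lower. In that fit 46.1% of all genes were called higher and 6.67% lower, so 4 of 10 members higher is near the share of any gene. HSP70.2 was thus higher, and HSPE1 and HSPB1 lower, under both scalings.

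Finer steps of mitochondrial share gave the same picture for HSP70.2 at some ages. At day 7 its level was 4.11 in B barcodes below 5%, 6.27 from 5 to 10%, 10.7 from 10 to 25% and 26.6 at 25% or more. At day 3 the steps were 1.71, 3.02, 5.46 and 7.07, and at day 14 they were 3.25, 3.4, 4.71 and 5.42. At day 0 and day 1 the first 2 steps did not rise (1.15 and 0.976, then 0.263 and 0.211), and the top step was highest (5.52 and 7.52). Day 21 showed no such order, at 1.05, 0.665, 0.700 and 0.895. HSPE1 went down over the same steps at day 7, from 8.17 to 5.09.

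**Figure D3:**
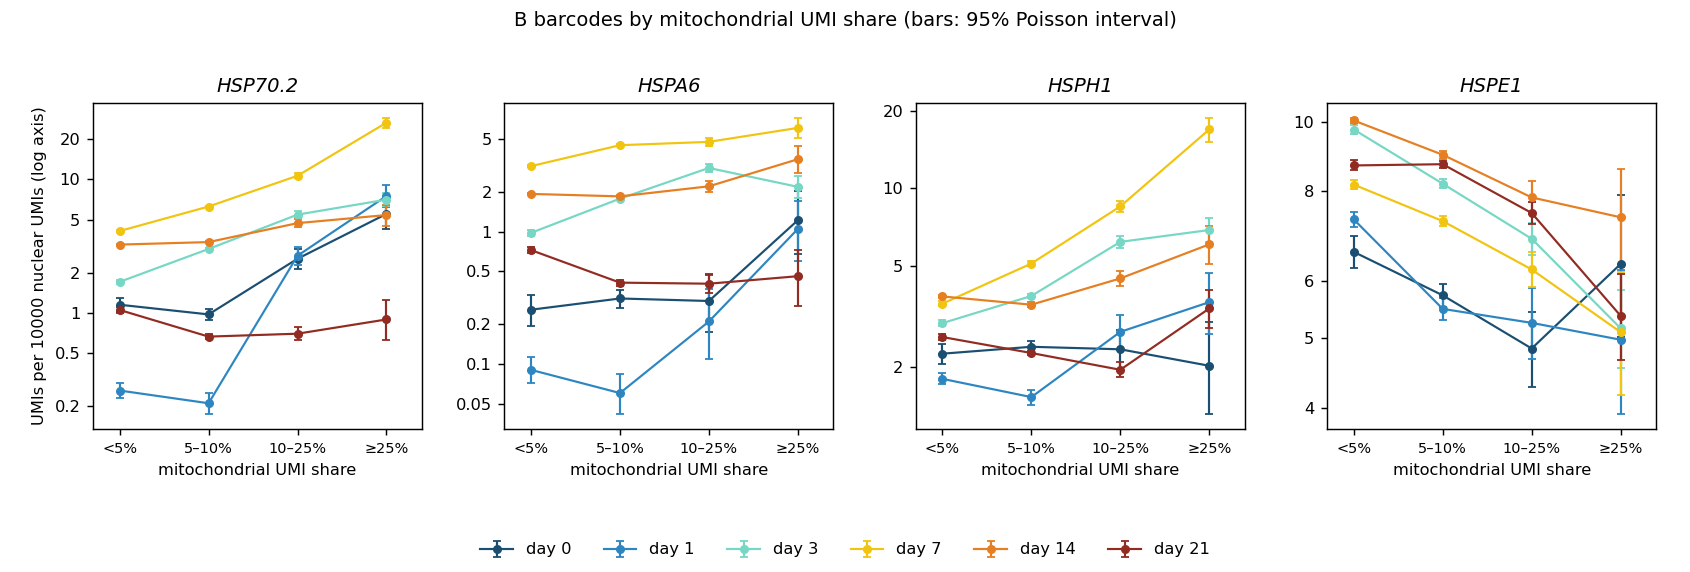
Levels of HSP70.2, HSPA6, HSPH1 and HSPE1 in B barcodes (vertical log axis, UMIs per 10000 nuclear UMIs) by share of mitochondrial UMIs (horizontal axis, 4 steps), with a line for each of the 6 ages and 95% Poisson intervals. HSP70.2 climbs from 4.11 to 26.6 at day 7 and has no such order at day 21, and HSPE1 goes down from 8.17 to 5.09 at day 7.

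Other measures moved with the mitochondrial share. High B barcodes at day 3 to day 21 were shallow, with medians of 1405 to 1714 UMIs against 3886.5 to 4744 in low ones, while at day 0 and day 1 they were deeper (4920 and 4852.5 against 3377 and 3746). The 8 epithelial markers summed to 0.026 to 4.45 in high and 0.010 to 0.847 in low B barcodes and were higher in the high class in 6 of 6 libraries, and HSPA1L, abundant in epithelial barcodes at day 0 and day 1 (0.425 and 1.56), was 3.21 higher. The summed immediate early genes were also higher in the high class in 6 of 6 libraries, by 0.48 ± 0.27 (SD, n = 6) on the log2 scale of plain levels. Scaled to the typical gene, 3 of the 12 were called higher and 3 lower (median -0.014 against 0.043 for all genes), beside 17.1% and 21.6% of all genes. With library size alone 8 were higher and 0 lower, beside 46.1% and 6.67% of all genes. The median of the 12 was then 0.54, against 0.62 for all genes. When each barcode was thinned to 1000 UMIs, so that deep barcodes no longer weigh more, the fitted HSP70.2 difference was 0.64. This was its lowest value over the alternatives, in which its adjusted p by edgeR or DESeq2 reached 0.041. The part of depth, of epithelial RNA and of the immediate early response in the B result was not tested.

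**Figure D4:**
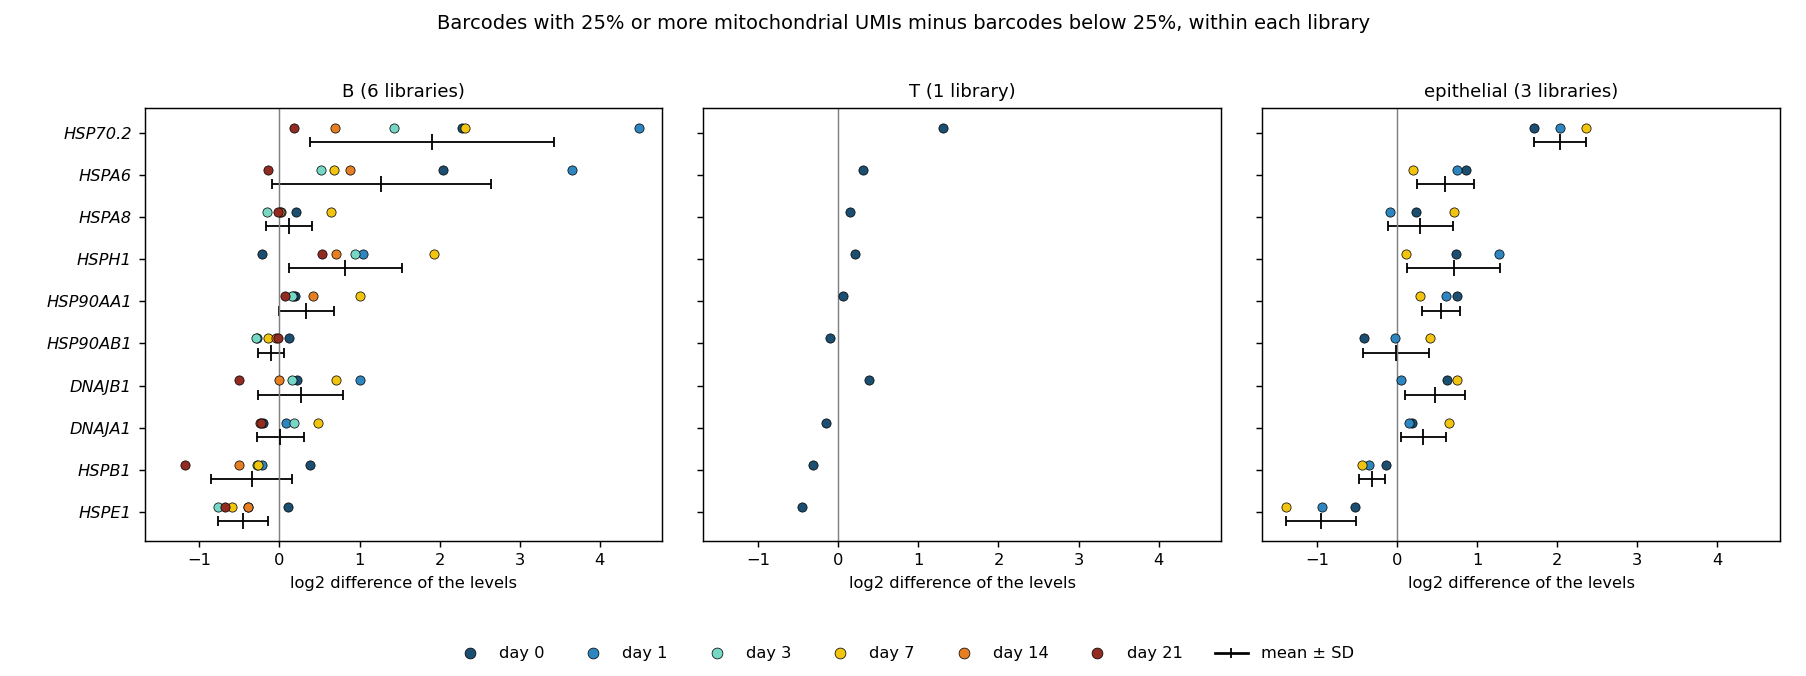
Log2 difference in level of each chaperone gene between barcodes with 25% or more and less than 25% mitochondrial UMIs, by library, for B (6 libraries), T (1) and epithelial barcodes (3). Bars with whiskers are means ± SD where more than 1 library entered. HSP70.2 lies above 0 in every library of the 3 panels, and HSPE1 lies below 0 in the 3 epithelial libraries.

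Epithelial barcodes allowed this comparison at day 0, 1 and 7, with 205, 145 and 46 high barcodes. HSP70.2 was 9.44, 9.48 and 51.3 in the high class and 2.88, 2.32 and 9.97 in the low class, a mean log2 difference of 2.03 ± 0.33 (SD, n = 3), higher in 3 of 3. It was the only member called (1.69, adjusted p = 0.0275, edgeR's quasi-likelihood test with Benjamini-Hochberg adjustment), where 4.88% of all genes were called, 3.7% higher. The call was lost without day 0 (1.81, adjusted p = 0.34) and without day 1 (1.62, adjusted p = 0.37), in fits of 2 libraries in which edgeR called 0 of all genes (1240 and 1006 had an unadjusted p below 0.05), and with the split at 15% (1.25, adjusted p = 0.17), where 10 of 9818 genes were called. HSPE1 was lower in 3 of 3 libraries and not called (-1.26, adjusted p = 0.053). Without day 7, also a fit of 2 libraries, 6 members were called, beside 3246 of 12899 genes. HSPE1 was among them (adjusted p = 9.26e-08 by edgeR). High epithelial barcodes were also shallower, with medians of 1601 to 4665 against 6680 to 18240 UMIs, and their summed immediate early genes were higher in 3 of 3 libraries, by 0.58 ± 0.11 (SD, n = 3) on the log2 scale of plain levels. In the fit edgeR called 0 of these 12 genes (median 0.20) and 1 had an unadjusted p below 0.05. With library size alone 2 were called higher, beside 15% of all genes, and with DESeq2 2, beside 10.8% of all genes. Summed B markers were higher in high epithelial barcodes in 3 of 3 libraries (0.324 to 4.71 against 0.137 to 1.26), as were T markers (0.144 to 2.29 against 0.125 to 1.00). The part of depth and of these markers in the epithelial result was not tested.

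In T barcodes only day 0 had enough high barcodes (50), and HSP70.2 was 13 in them and 5.27 in the low class, with no test. Summed epithelial markers were 4.21 in these high T barcodes and 1.14 in the low ones, and their part was not tested. With the split at 15%, 2 libraries could be fitted, and HSP70.2 was higher (1.14, adjusted p = 3.92e-07) and HSPE1 lower (-0.65, adjusted p = 0.014), where 7.1% of all genes were called (4.17% higher and 2.93% lower). Whether the difference between high and low barcodes was itself unequal in epithelial and B cells was tested as an interaction over 3 libraries, and edgeR called 0 of the 10 members. The smallest adjusted p was 0.44, for HSPA6, and HSP70.2 had -0.82 (adjusted p = 0.56). At an unadjusted p below 0.05 the count was also 0, and 463 of 9947 genes were called in that test.

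The chaperonins and co-chaperones had the sign of HSPE1 in high B barcodes when scaled to the typical gene. All 9 chaperonin genes were lower, beside 21.6% of all genes (median -0.81 against 0.04 for all genes), with -0.90 for CCT7 and -0.70 for HSPD1 (adjusted p = 1.98e-05). With library size alone edgeR called 0 of the 9 (median -0.25) and 2 had an unadjusted p below 0.05, in a fit that called 6.67% of all genes lower, whereas DESeq2 called 9 lower, beside 15% of all genes. Of 14 co-chaperones, 10 were lower in the main fit, led by BAG2 (-1.37), CACYBP (-1.08) and CDC37 (-1.06), and 3 with library size alone. The single co-chaperone called higher was BAG3 (0.74, and 1.32 with library size alone), which DESeq2 did not call. HSPA5 was higher (0.53, and 1.09 with library size alone). Of the 7 other HSP70 genes tested, 2 were called higher and 2 lower, and of 11 other J proteins 1 higher and 3 lower. Over all genes the main fit called 17.1% higher and 21.6% lower. With library size alone 3 of the 7 and 4 of the 11 were higher and 0 lower, beside 46.1% of all genes higher and 6.67% lower.

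Chaperone genes occurred together in the same barcodes. B and T barcodes thinned to 1000 UMIs were split by HSP70.2 itself, and the level of the other 9 in barcodes with 2 or more HSP70.2 UMIs was divided by that in barcodes with none. In B barcodes, over 5 libraries, the median ratio was 8.05 for HSPA6 (range 3.82 to 15.3), 4.49 for DNAJB1, 2.92 for HSPH1 and 2.40 for HSPB1. It was 2.17 for HSP90AA1, 1.90 for DNAJA1, 1.70 for HSPA8, 1.41 for HSP90AB1 and 1.17 for HSPE1. T barcodes, over 6 libraries, gave nearly the same order, with 8.52 for HSPA6, 4.82 for DNAJB1, 3.31 for HSPH1 and 3.26 for HSPB1 at the top and 1.51 for HSPE1 and 1.21 for HSP90AB1 at the bottom. Each ratio was above the median ratio of other genes in that library, except HSPE1 in 1 B library and HSP90AB1 in 1 T library. These ratios describe the barcodes and carry no test, since cells of 1 library are not replicates.

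**Figure D5:**
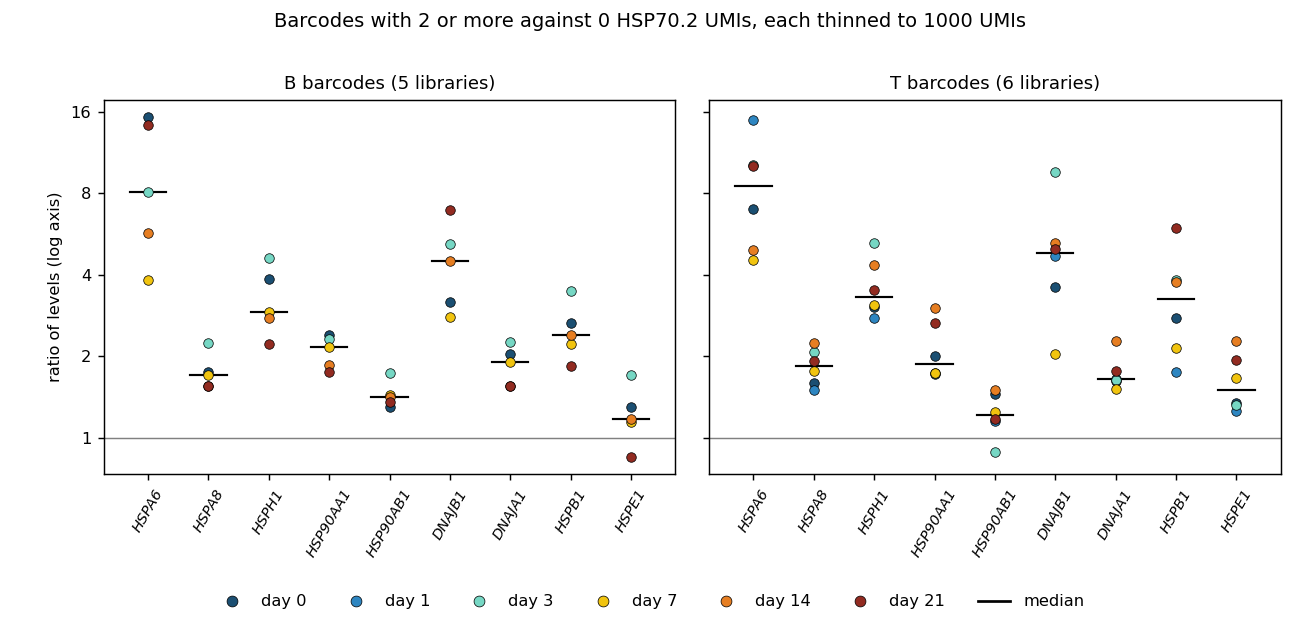
Ratio of the level of 9 chaperone genes in thinned barcodes with 2 or more HSP70.2 UMIs to that in barcodes with none (vertical log axis), for B (5 libraries) and T (6 libraries). Points are libraries and the line marks the median. HSPA6 is highest with medians of 8.05 and 8.52, and HSP90AB1 and HSPE1 are lowest, with medians of 1.17 to 1.51.

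Log2 levels were also correlated across the 17 sums of a class and a library, after the mean of each class was taken out. HSP70.2 ran closest with HSPA6 (Pearson's r = 0.95) and HSPH1 (0.87), and HSPH1 with HSPA6 and DNAJB1 (0.89 each). HSP90AB1 had an r of -0.15 with HSP70.2 and -0.17 with HSPA6, and ran closest with HSPE1 (0.75). The 17 points share 6 libraries and differ in depth, so these values are descriptions. Among 1095 other genes at 1 or more UMI per 10000 in most sums, those most like the summed chaperones over the same 17 points were UBB, a polyubiquitin gene (r = 0.82), then the interferon-induced genes IFI6 (0.69), ISG15 (0.69) and MX1 (0.67), and PPA1, an inorganic pyrophosphatase (0.66).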

How the data were processed

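Single-cell RNA was measured in 6 libraries of piglet ileum, 1 per age (day 0, 1, 3, 7, 14 and 21). Per the study's methods, tissue was dissociated with EDTA on ice and then TrypLE, and run on the 10x Genomics 3′ system. The labels give kit version 3 and the methods another version, and the series text names the cecum where the sample labels name the ileum. The methods give 5 piglets per age, and whether they were pooled is not stated. The values are UMI counts per gene and barcode, which the authors deposited as raw matrices made with Cell Ranger 3.1.0 and STAR on susScr11, per the submitters' processing notes.

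Barcodes of at least 1000 UMIs and 500 genes were kept, counts of the 13 mitochondrial genes were taken out, and counts were summed per library and class. Sums of at least 20 barcodes were tested across all genes with edgeR 4.0.16 (quasi-likelihood test, TMM scaling, library as a block, Benjamini-Hochberg threshold 0.05; limma 3.58.1, R 4.3.3). DESeq2 1.42.0 was an alternative. Levels, intervals and plots were made with Python 3.11.15, numpy 2.4.6, scipy 1.17.1, pandas 2.3.3 and matplotlib 3.10.9. No doublet caller was run, and barcodes passing more than 1 gate were left out. The 6 libraries enter the within-library tests as replicates though their ages differ. Where nothing says that cells came from separate animals, p-values measure the spread between these libraries only.

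On simulated counts for T against B over 10858 genes, the fit called 80 of 100 genes changed 2-fold, 99 of 99 changed 4-fold and 3 of 10659 unchanged genes. Those counts came from the pooled B profile, with a fixed spread shared by all genes. They held no difference between ages, or between classes beyond the changed genes, which were taken from the better counted ones. Real libraries differ in age, so these rates may not hold for the real comparison. Depth was 77391932 to 100348769 UMIs per library. The members, the related lists and the tests were chosen with earlier results of these data known. Named are the 10 members, up to 4 genes of each related list by size of change, and the 5 genes most like the summed members. Outside that rule are HSPD1, as the partner of HSPE1, and HSPA5, the HSP70 of the endoplasmic reticulum. HSPA5 was chosen after its values were seen. Positions are those of RefSeq on Sscrofa11.1, matched by symbol for 10 of 10 members, and the position of HSP90AA1 is on an unplaced sequence. Alternatives were no TMM, DESeq2, no filter on low counts, mitochondrial genes kept, no library block, stricter gates, deeper barcodes, thinned barcodes, other mitochondrial splits and each library left out. Comparing cycling with other B barcodes was added after the data were seen.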

Additional observations from a re-analysis of the deposited data

Results flagged for a closer look

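Of 40 sets of per-library differences tested, 2 had a library far from the others by Dixon's criterion, which chance alone gives in about 1 of 20 sets. For HSP90AA1 in epithelial against T barcodes (n = 5), the day 3 library had a log2 difference of 0.067 and the nearest of the other 4 had -0.88. For HSP90AA1 in B barcodes with a high against a low mitochondrial share (n = 6), the day 7 library had 1.01 and the nearest of the others had 0.41.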

How the results depend on the processing

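Under the alternatives, 631 values for single chaperone genes kept their direction and side of the threshold, 40 gained a call, 37 lost one and 42 turned sign. The causes were not tested. Depth limits epithelial values at day 14 (27 barcodes) and high mitochondrial classes of 42 to 50 barcodes.

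In T against B barcodes 1 of 10 genes was called, beside 25.8% of all genes. DESeq2 called 2, beside 30.7%, and each library left out gave 1 to 2, beside 2259 to 2751 of all genes. The library block is the pairing of classes within a library. Without the block 0 were called in T against B, beside 2688 of 12391 genes, with HSP70.2 at 1.51 (adjusted p = 0.088 by edgeR). In epithelial against B 3 were called without it, beside 7350 of 12391 genes. HSPB1 turned sign in T against B, at 0.094 without TMM, 0.015 with DESeq2, 0.014 with no block and 0.039 with stricter gates, with leave-one-out values of -0.32 to 0.048. DNAJA1 ran from -0.12 to 0.13 with libraries left out.

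In epithelial against B barcodes 7 were called, beside 61.5% of all genes, and 3 without TMM, beside 58.3%. With a library left out 5 to 7 were called, beside 5998 to 7806 of all genes. HSPA8 was 0.090 without TMM. DNAJB1 turned sign, at 0.26 without TMM, 0.054 with DESeq2, 0.043 with mitochondrial genes kept, 0.13 with stricter gates, 0.043 with deeper barcodes and -0.32 to 0.21 with libraries left out. In epithelial against T barcodes 5 were called, beside 54.6% of all genes, and 4 to 6 with libraries left out, beside 5218 to 7079 of all genes. HSP70.2 there was 0.085 without TMM, 0.090 with no block, 0.058 with barcodes of more than 1 gate, 0.15 when thinned, and -0.32 to 0.092 with libraries left out. HSPA6 was -0.069 with no filter on low counts, -0.015 with no block, -0.076 when thinned and -0.29 to 0.33 with libraries left out.

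For mitochondrial share in B barcodes 6 were called, beside 38.7% of all genes. With libraries left out 5 to 7 were called, beside 2970 to 4071 of all genes. Without TMM, HSPA8 (0.12), HSP90AA1 (0.34), DNAJB1 (0.29) and DNAJA1 (0.020) turned sign, as did HSPA6 when thinned (-0.37). DNAJB1, not called in the main fit (-0.27), also reached -0.79 over the alternatives and was called lower in some settings. With libraries left out it ran from -0.40 to -0.078, with an adjusted p as low as 0.018 by edgeR. In epithelial barcodes 1 was called (beside 4.88% of all genes), against 3 with DESeq2 (22.1%) and 2 with no filter (1931 of 17013 genes). The split at 15% called 0 (10 of 9818 genes) and deeper barcodes 5 (2607 of 12797 genes, 2 libraries). With libraries left out the count was 0 to 6, namely 0 without day 0 or day 1. Without day 7 it was 6 (3246 of 12899 genes, 2 libraries). HSPA8 was 0.28 without TMM, 0.083 with the split at 15%, 0.14 when thinned and -0.29 to 0.059 with libraries left out. DNAJA1 was 0.31 without TMM, 0.084 when thinned and -0.21 to 0.0017 with libraries left out. DNAJB1 was -0.062 with no filter, -0.070 with deeper barcodes and -0.035 to 0.27 with libraries left out, and HSP90AA1 was -0.010 with the split at 15%.

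The summed log2 level of day 21 against day 0 in B barcodes was -0.34, and -0.50 as a mean over barcodes, -0.24 with stricter gates, -0.30 with deeper barcodes and -0.50 when thinned.

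Counts over all genes moved by more than 1.5 times in some settings. Epithelial against B called 7624 genes and 4873 when thinned. Epithelial against T called 6770 and 4127 when thinned. The mitochondrial comparison called 3900 genes in B barcodes and 1892 in deeper ones. In epithelial barcodes it called 424 genes, 1379 without TMM, 1922 with DESeq2, 1931 with no filter, 266 with mitochondrial genes kept, 10 with the split at 15%, 133 for below 10% against above 25%, 2607 in deeper barcodes, 192 when thinned, 0 without day 0 or day 1 and 3246 without day 7. Cycling against other B barcodes called 5556 genes and 3687 when thinned. The share of called genes that were higher was 42.6% in T against B and 59.2% without TMM, 48.3% in epithelial against B and 64.0% without TMM, 44.3% for mitochondrial share in B and 87.4% without TMM, and in epithelial 75.9%, then 94.3% without TMM and 49.0% with DESeq2. Without TMM the median of all genes moved up by 0.17, 0.36, 0.18, 0.57 and 0.30 in the 5 comparisons in the order given here.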

Other observations

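B barcodes with at least 2 UMIs of the cell cycle genes MKI67, TOP2A and CENPF were set against those with fewer. This comparison was added after the data were seen, and deeper barcodes reach that count more easily. HSPA6 (-1.46), HSP70.2 (-1.27), DNAJB1 (-1.01) and HSPB1 (-0.41) were lower in the cycling barcodes, and HSPE1 (0.23, adjusted p = 0.032, edgeR's quasi-likelihood test with Benjamini-Hochberg adjustment) was higher, which is 5 of 10 members in a comparison that called 46.3% of all genes. All 9 chaperonin genes were higher, beside 21.4% of all genes, HSPD1 by 0.46. Of 12 immediate early genes 11 were lower, beside 24.9% of all genes. With barcodes thinned to 1000 UMIs, 6 of the 10 members were lower and 0 higher, beside 21.4% of all genes lower and 16.4% higher, and HSPE1 had 0.054.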
